A study of Rattus norvegicus with 62 samples.

Results

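The comparison described here sets rat livers initiated with 30 mg/kg of diethylnitrosamine (5w DEN30/PB, 4 arrays) against livers initiated with 3 mg/kg (5w DEN3/PB, 5 arrays). The 9 arrays were chosen by their titles from the 62 of the series, and all genes were compared. The animals were male rats of the outbred Sprague-Dawley stock Crj:CD(SD)IGS. Both groups received the nitrosamine, then 2 weeks without it, and then phenobarbital (PB) at 500 ppm in drinking water. Liver was taken at partial hepatectomy, 1 week after phenobarbital began, the time called 5w. The groups shared the promoter, so they differed in the labels only by the dose of the initiator. A reference without initiator was given by 4 animals that received the methylcellulose vehicle and phenobarbital (5w MC/PB), and 4 others received vehicle and plain water (5w MC/water). The same animals were sampled again at the end of the study (10w). The initiator was given for 1 or 2 weeks, and the labels do not say which applied to diethylnitrosamine. They give doses as mpk, read here as mg/kg, and no route.

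Diethylnitrosamine becomes mutagenic only after oxidation by liver cytochromes such as Cyp2e1, and its ethylated DNA adducts act as the initiating lesion. In the 2-stage design a promoter such as phenobarbital, which acts through the nuclear receptor CAR, favours the growth of initiated hepatocytes into foci. In rat liver such foci are classically recognised by the placental glutathione S-transferase Gstp1 and the gamma-glutamyltransferase Ggt1, which adult hepatocytes express little. DNA damage also engages p53, whose targets include the cell cycle inhibitor Cdkn1a and the p53 ubiquitin ligase Mdm2.

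The median signal of the 9 arrays lay between 109 and 124, and between 51.7% and 54.4% of probe sets reached a signal of 100, the minimum used below. Neither measure separated the doses (two-sided exact permutation p = 0.73 and 0.651, the smallest possible p being 0.0159). Hepatocyte markers were at similar high levels on all 9 arrays, with Alb signals from 46290 to 58395. After group means were removed, a principal component with 14.8% of the remaining variance split the arrays into a pair of sets that no label names. In the dose groups odd replicate numbers lay in set 1 and even ones in set 2, so the high dose had 2 arrays in each, and the low dose 3 in set 1 and 2 in set 2. Values within each set are given for part of the lists and of the genes. The cause of the sets was not tested. The sets were read from these same arrays, so smaller p-values with array set as a block or within a set are not independent support. Differences below are high dose minus low dose on the log2(signal + 25) scale, which understates changes from low signals, with the standard error from limma fitted on the 31 arrays of 5w.

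Few single genes differed between 30 mg/kg and 3 mg/kg by more than the spread between arrays within groups, which includes the array sets. Of 10491 genes, 1 passed a limma adjusted p of 0.05 (0.00953%), and it was lower at the high dose. At an unadjusted p under 0.05 there were 319 higher genes (3.04%) and 196 lower genes (1.87%). Every high-dose array exceeded every low-dose array for 119 genes (1.13%), and lay below every one for 71 (0.677%). A difference of at least 1 on the log2 scale was measured for 31 genes, 19 higher and 12 lower. The median difference over all genes was 0.01, and 53.2% of differences were positive.

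The intervals give the room left for differences that the test did not call. For 93.2% of genes the 95% interval of the difference lay within 1 log2 unit, or 2-fold, in either direction. For 63.2% it lay within 0.5 log2 units, or 1.41-fold. Missing the threshold does not show that the doses acted alike.

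The gene that passed was Cela1, which encodes a chymotrypsin-like elastase. Its signal was 381, 254, 246 and 312 on the high-dose arrays. On the low-dose arrays it was 700, 1335, 665, 743 and 1006. The highest high-dose array was thus well below the lowest low-dose array. Cela1 fell by 1.47 ± 0.25 (SE, n = 4 and 5, limma adjusted p = 0.0204), or 2.77-fold, with a 95% interval from -1.98 to -0.96. In the MC/PB livers signals were 593 to 1176, a range that overlapped the low dose and lay above the high dose. Against MC/PB the high dose was at -1.31 ± 0.26 (limma adjusted p = 0.0264) and the low dose at 0.16 ± 0.25 (adjusted p = 0.999). The call was lost without low-dose replicate 2 or 5 or high-dose replicate 2 or 3 (adjusted p = 0.14, 0.0542, 0.134 and 0.0889), while the difference stayed between -1.59 and -1.31 when any 1 array was left out. Within set 1 alone the difference was -1.27 and within set 2 alone -1.74, neither past the threshold.

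Because Cela1 belongs to a family of pancreatic enzymes, 22 genes of the exocrine pancreas were also read, a list added after the result was seen. Of the 21 on the array, 17 were under a signal of 100 on all 9 arrays, among them Prss1, Cpa1, Cel and Amy2a3. The summed signal of 20 of them, without Cpb1, was 544 to 809 at the high dose and 549 to 706 at the low dose. Prss3, Ctrl and Pnlip reached 100 on 1, 2 and 1 of the 9 arrays, and the carboxypeptidase gene Cpb1 on 6. Ctrl was at 28.9 to 139 at the high dose and 29.7 to 68.2 at the low dose. Cpb1, left out of the sum, was also picked after its values were seen. Its signals were 56.6, 85.7, 36.4 and 105 at the high dose and 165, 259, 143, 306 and 105 at the low dose, which only just did not overlap. Its difference was -1.18 ± 0.41 (limma adjusted p = 0.73).

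**Figure D1:**
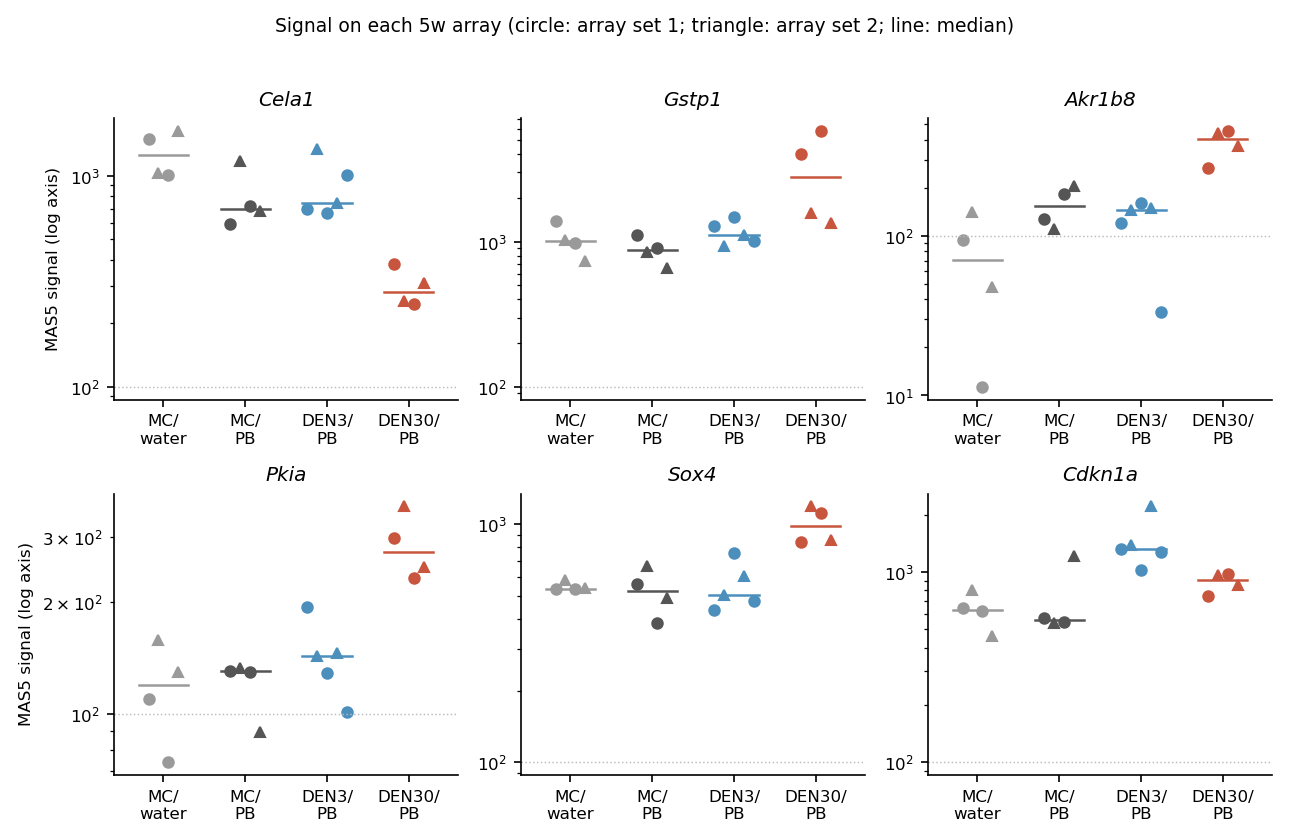
MAS5 signal on a log axis for 6 genes on every 5w array of 4 groups, with circles for array set 1, triangles for set 2, a line at the median and a dotted line at a signal of 100. Cela1 lies at 246 to 381 in DEN30/PB, below the other 3 groups, while Gstp1 is highest on the 2 DEN30/PB arrays of set 1.

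Markers of preneoplastic foci were mostly higher after the high dose, but none passed the test. The list held 17 tested genes, of which 13 had positive differences, against 53.2% of all genes. An unadjusted p under 0.05 was reached by 5 of the 17, all higher, against 3.04% of all genes on that side. The lists were chosen with earlier results of these data known. Here and below, list counts set beside the share of all genes are thus descriptive only. The list median was 0.37 against 0.01 for all genes, with 0.41 in set 1 and 0.30 in set 2.

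Gstp1 had signals of 4016, 1565, 5807 and 1349 at the high dose, against 1274, 932, 1479, 1114 and 1006 at the low dose. High-dose replicates 1 and 3 stood far above all others, whereas replicate 4 lay within the low-dose range. The difference was 1.19 ± 0.28 (limma adjusted p = 0.212), with an interval from 0.62 to 1.77. It was 1.94 in set 1, where limma on that set gave an adjusted p of 0.00183, and 0.50 in set 2. With array set as a block, Gstp1 passed at 1.25 (adjusted p = 0.00532). Both fits use sets read from the same arrays, so they are not independent support. Leaving out 1 array at a time gave 0.82 to 1.52, with a call only without high-dose replicate 4 (adjusted p = 0.0424). At the low dose Gstp1 was 0.39 ± 0.28 above MC/PB (adjusted p = 0.999), and at the high dose it rose by 1.58 ± 0.30 over the same arrays (adjusted p = 0.017).

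The aldo-keto reductase Akr1b8 separated the doses fully. Signals were 267, 442, 453 and 363 at the high dose and 120, 145, 160, 149 and 33.5 at the low dose. Its difference of 1.55 ± 0.42 did not pass (limma adjusted p = 0.472), and low-dose replicate 5 lay far under its group. Ggt1 also did not overlap, at 153, 269, 171 and 182 against 32.4, 115, 83.7, 135 and 140, a difference of 0.86 ± 0.30 (adjusted p = 0.73). Annexin Anxa5, a phospholipid-binding protein, differed by 0.66 ± 0.17 (adjusted p = 0.407), with 0.41 in set 1 and 0.87 in set 2. Further members with positive values were Lcn2 at 0.84, the glutathione S-transferase Gsta3 at 0.68, Cdh13 at 0.61, Prom1 at 0.46 and the transporter Abcc3 at 0.37. Members nearer 0 included Nqo1 at 0.08, Txnrd1 at 0.10, Ephx1 at -0.07 and Aldh1a1 at -0.07. Gpx2, a glutathione peroxidase, was at 1.22 in set 1 and -1.86 in set 2. The wider list of NRF2 targets, to which Akr1b8, Nqo1 and Txnrd1 belong, had a median of 0.10 over 23 genes.

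Oncofetal and progenitor genes, which fetal hepatocytes and progenitor cells express and adult hepatocytes mostly silence, had positive differences in all 12 tested members. The median was 0.46, with 0.35 in set 1 and 0.49 in set 2. Of the 12, 5 had an unadjusted p under 0.05, against 3.04% of all genes on the higher side. The transcription factor Sox4 had the smallest p, at signals of 845, 1188, 1115 and 858 against 438, 502, 760, 607 and 477. These groups did not overlap, and the difference was 0.83 ± 0.16 (limma adjusted p = 0.0567). With array set as a block, Sox4 passed at 0.82 (adjusted p = 0.0408). Its 3 other probe sets gave 0.19 to 0.52, and the mean over probe sets 0.47. The fetal albumin homologue Afp had signals of 1311, 919, 1331 and 1216 at the high dose and 972, 834, 963, 785 and 1164 at the low dose. Afp overlapped between the doses and differed by 0.33 ± 0.14 (adjusted p = 0.841). The imprinted transcript H19 was at 0.53, with 0.87 in set 1 and 0.20 in set 2. The glypican Gpc3 was at 0.53 and the imprinted gene Mest at 0.60. The surface protein Cd24 was under a signal of 100 on all low-dose arrays, and the high dose was at least 1.24-fold higher with signals under 100 set to 100.

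Biliary epithelial markers overlap with this list through Krt19, Epcam and Spp1, and with the focus list through Ggt1. All 7 tested had positive differences, with a median of 0.47 (0.34 in set 1 and 0.24 in set 2). Without overlap was 1 member, Ggt1, against 1.13% of all genes on the higher side. Krt19, a keratin of bile ducts, was at 0.47 ± 0.30 and the adhesion molecule Epcam at 0.26 ± 0.14 (limma adjusted p = 0.999 for both). The mean level of the 7 genes ran from 8.13 to 8.54 on the high-dose arrays and from 7.59 to 8.22 on the low-dose arrays, on the log2 scale. In bulk tissue, more cells of a type and more RNA per cell cannot be told apart, and the part of biliary cells in the values of the focus and oncofetal genes was not tested.

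**Figure D2:**
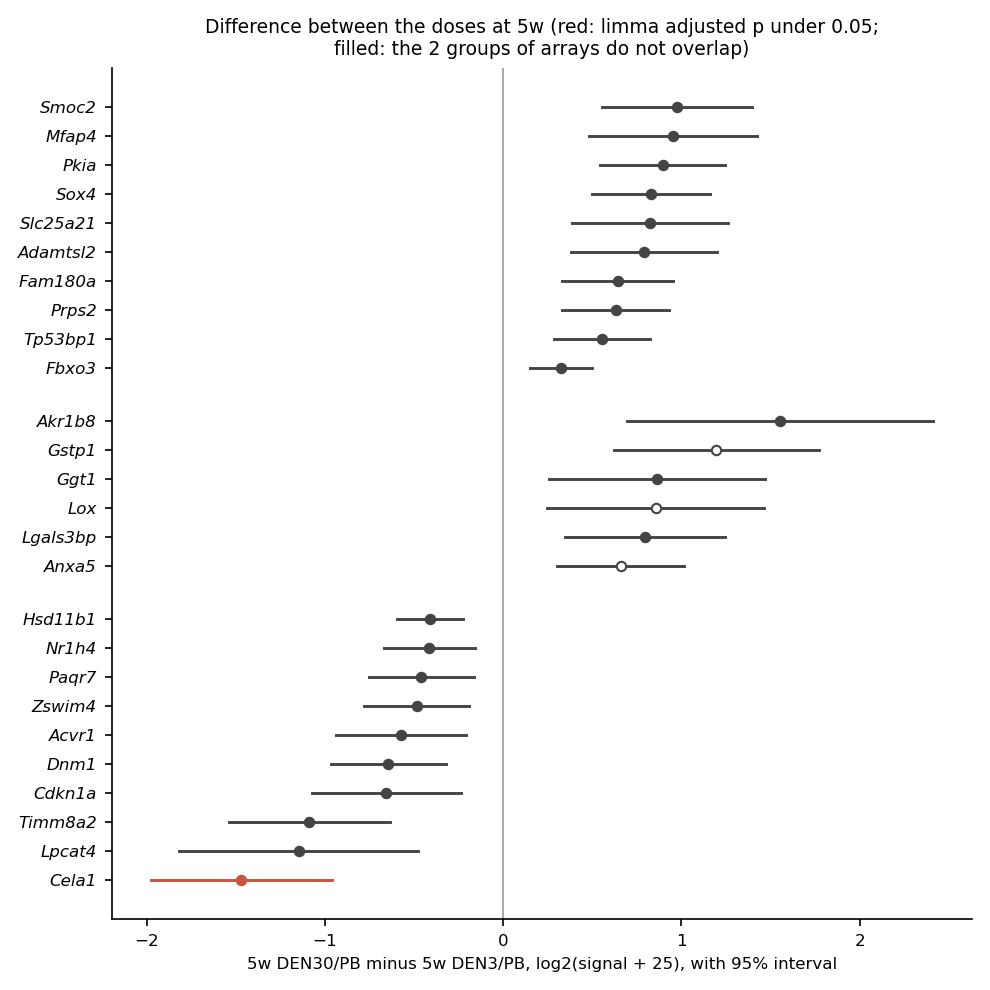
Difference between the doses at 5w (DEN30/PB minus DEN3/PB, log2 of signal + 25) with its 95% interval for the 20 genes taken by the naming rule and for 6 others. Of these 6, Gstp1, Ggt1, Lox and Lgals3bp were in the fixed set, while Akr1b8 and Anxa5 were taken from the focus list by small p. Only Cela1, in red, passed the limma threshold, and open circles mark genes whose groups overlap.

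Genes of stellate cells and fibroblasts, the matrix-producing cells of the liver, also had mostly positive differences. Of 24 tested, 21 had positive differences, 8 an unadjusted p under 0.05 and 4 no overlap, all higher, against 3.04% and 1.13% of all genes. The median was 0.26, with 0.32 in set 1 and 0.28 in set 2. The fibrillar collagen Col1a1 had signals of 687, 637, 711 and 703 at the high dose and 364, 337, 480, 390 and 287 at the low dose. These did not overlap, with a difference of 0.86 ± 0.24 (limma adjusted p = 0.521), and a second probe set gave 0.84. Col3a1, another fibrillar collagen, was at 7973, 9369, 7218 and 7947 against 5455, 5930, 6524, 6834 and 5697. It too did not overlap, at 0.41 ± 0.14 (adjusted p = 0.73).

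The gelatinase Mmp2 differed by 0.51 ± 0.17 without overlap, and the lysyl oxidase homologue Loxl1 by 1.10 ± 0.37 from mostly low signals (both limma adjusted p = 0.73), with 0.62 in set 1 and 1.67 in set 2 for Loxl1. Markers of the stellate cell itself were smaller, with Acta2 at 0.26, Des at 0.30, Lrat at 0.18, Pdgfrb at 0.21 and Cygb at 0.24. The partly overlapping list of extracellular matrix and remodelling genes had 22 of 27 positive differences and a median of 0.28. It included the basement membrane collagen Col4a1 at 0.43 ± 0.14 and the inhibitor Timp2 at 0.51 ± 0.17, with 0.08 from a second Timp2 probe set. Members on the other side were Plau at -0.39 and Col15a1 at -0.48.

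The 10 higher genes of the naming rule were taken by smallest p among genes whose dose groups did not overlap. Their lack of overlap is thus a condition of the choice, and none passed. Smoc2, a secreted calcium-binding matrix protein, had signals of 621, 813, 589 and 681 against 275, 310, 383, 403 and 291. Its difference was 0.97 ± 0.20 (limma adjusted p = 0.0993). Mfap4, a microfibril-associated protein, had 305, 384, 240 and 342 against 120, 214, 122, 177 and 132, and differed by 0.95 ± 0.23 (adjusted p = 0.239). Adamtsl2, a secreted glycoprotein that binds fibrillin, differed by 0.79 ± 0.20 (adjusted p = 0.358).

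The smallest p on the higher side belonged to Pkia, an inhibitor of protein kinase A. It had signals of 299, 363, 233 and 249 at the high dose and 195, 143, 129, 146 and 101 at the low dose. Pkia differed by 0.89 ± 0.17 (limma adjusted p = 0.0567), with 0.83 in set 1 and 0.94 in set 2. It passed in 6 of 23 alternatives, among them array set as a block (adjusted p = 0.0408). The mitochondrial oxodicarboxylate carrier Slc25a21 differed by 0.82 ± 0.21, Fam180a by 0.64 ± 0.15 and the F-box protein Fbxo3 by 0.33 ± 0.08.

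For Prps2 and Tp53bp1 it was the low-dose group that stood away from the livers without initiator. Prps2, a phosphoribosyl pyrophosphate synthetase, had signals of 608, 671, 495 and 584 at the high dose, 355, 406, 261, 390 and 468 at the low dose, and 767, 611, 601 and 616 in MC/PB. The high-dose and MC/PB arrays overlapped and the low-dose arrays lay below both. The dose difference was 0.63 ± 0.15 (limma adjusted p = 0.212), and Prps2 fell by 0.76 ± 0.15 from MC/PB to the low dose (adjusted p = 0.0379). Other Prps2 probe sets gave dose differences of 0.32 and 0.16. Tp53bp1, a DNA double-strand break response protein, had 393, 372, 422 and 411 at the high dose, 292, 256, 252, 247 and 275 at the low dose, and 338 to 411 in MC/PB. Its dose difference was 0.55 ± 0.13 (adjusted p = 0.212), and the low dose was at -0.47 against MC/PB (adjusted p = 0.337).

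Targets of p53 tended the other way, with more signal after the low dose. Of 22 tested, 16 had negative differences, and 6 of them an unadjusted p under 0.05, against 1.87% of all genes on that side. The median was -0.10, with -0.04 in set 1 and -0.16 in set 2. Within set 1 alone 11 of the 22 differences were positive, and within set 2 alone 6. Cdkn1a had signals of 747, 959, 977 and 850 at the high dose and 1322, 1386, 1029, 2212 and 1277 at the low dose. In MC/PB it was at 574, 542, 549 and 1215. The doses did not overlap, at -0.66 ± 0.20 (limma adjusted p = 0.668), with -0.48 in set 1 and -0.94 in set 2. A second probe set gave -1.16.

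Relative to MC/PB, Cdkn1a was at 0.37 after the high dose and 1.02 after the low dose (limma adjusted p = 0.95 and 0.0526). Mdm2 followed the same order, with signals of 867, 962, 1201 and 741 against 1040, 1327, 1131, 1295 and 1192. Its doses overlapped and differed by -0.35 ± 0.12 (adjusted p = 0.73), with -0.13 in set 1 and -0.62 in set 2. The cyclin gene Ccng1 differed by -0.34 ± 0.15 (adjusted p = 0.926) and Tp53inp1, a p53-induced regulator of autophagy, by -0.59 ± 0.24 (adjusted p = 0.84; -0.99 in set 1 and -0.11 in set 2). The exception was Ddit4l, an inhibitor of mTOR signalling, which was at 260, 266, 282 and 160 against 46.8, 142, 123, 131 and 130. It did not overlap and was 0.97 ± 0.29 higher at the high dose (adjusted p = 0.583), with 1.33 in set 1 and 0.53 in set 2. The DNA repair gene Mgmt, which removes alkyl groups from guanine, was at 0.18 in set 1 and -0.98 in set 2, and the 31 genes of the DNA repair list had a median of 0.00.

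**Figure D3:**
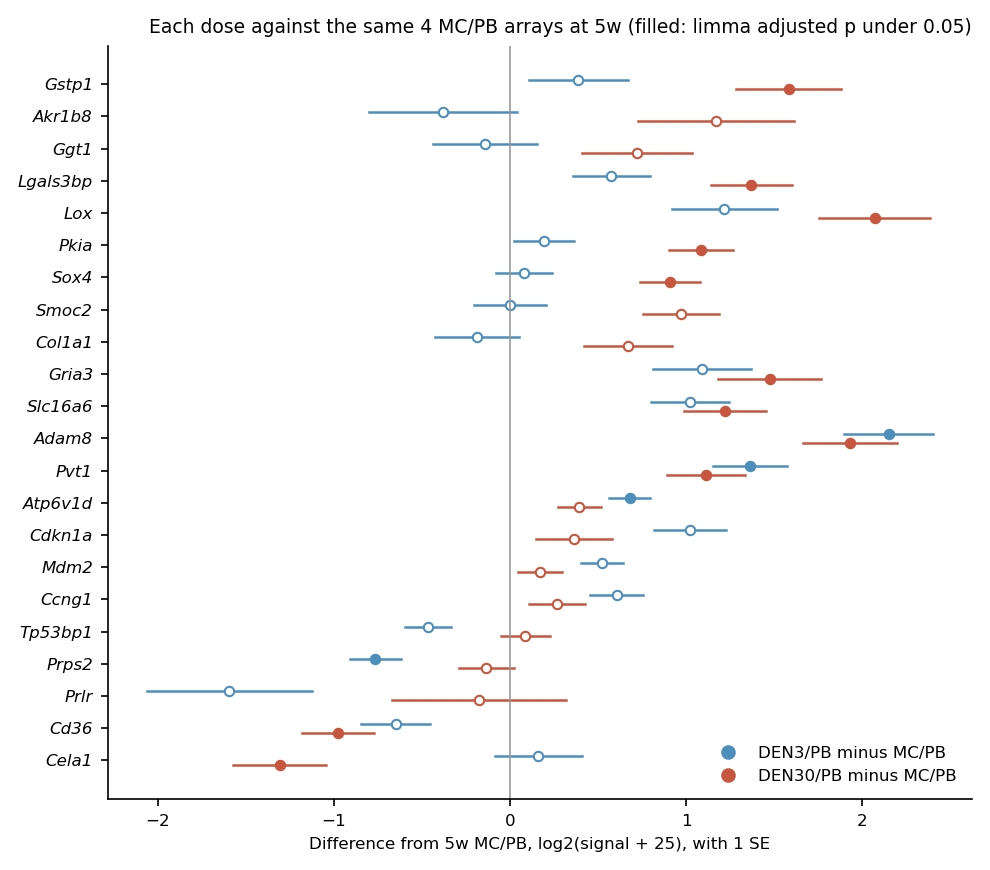
Difference of each dose from the same 4 MC/PB arrays at 5w (log2 of signal + 25, with 1 SE) for 22 genes, blue for DEN3/PB and red for DEN30/PB, filled where the limma adjusted p was under 0.05. Adam8 and Pvt1, both under a signal of 100 in MC/PB, are filled for both doses, Cdkn1a lies farther right at the low dose (1.02 against 0.37), and Cela1 lies at -1.31 for the high dose and 0.16 for the low dose.

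Other genes on the lower side, likewise taken by smallest p among genes without overlap, were mostly of small size or low signal. The bile acid receptor Nr1h4 had signals of 3244, 3111, 2795 and 3114 against 3866, 4721, 4959, 3695 and 3414. Its groups were narrowly apart, at -0.41 ± 0.12 (limma adjusted p = 0.583). Hsd11b1, which regenerates active glucocorticoid in hepatocytes, had 14734, 17289, 15584 and 15812 against 18951, 24818, 19315, 21724 and 20809. The difference of -0.41 ± 0.09 (adjusted p = 0.136) separated all arrays, and with array set as a block Hsd11b1 passed at -0.42 (adjusted p = 0.0408). The high-dose arrays overlapped the MC/PB range of 14850 to 18937. The activin receptor Acvr1 was at -0.57 ± 0.18, the dynamin Dnm1 at -0.64 ± 0.16, Zswim4 at -0.48 ± 0.14 and the progestin receptor Paqr7 at -0.46 ± 0.15 (adjusted p from 0.253 to 0.675). The other 2 Acvr1 probe sets gave 0.05 and 0.04, and the mean over probe sets -0.16, so Acvr1 carries no direction beyond its first probe set.

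Timm8a2 and the lysophospholipid acyltransferase Lpcat4 were under a signal of 100 on every high-dose array. With signals under 100 set to 100, the low dose was at least 1.02-fold and 1.17-fold higher for them, so their fitted differences of -1.09 and -1.15 rest on values near the detection limit.

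Lipid genes showed opposite displacements in synthesis and oxidation, without a gene that passed. Of 19 genes of fatty acid synthesis, 17 had positive differences. Among these, 5 had an unadjusted p under 0.05, against 3.04% of all genes on that side. The median was 0.28 (0.26 in set 1, 0.45 in set 2), and no gene was without overlap. The stearoyl-CoA desaturase Scd2 had signals of 938, 638, 1067 and 864 against 514, 514, 546, 366 and 869. Low-dose replicate 5 lay within the high-dose range, and the difference was 0.65 ± 0.19 (limma adjusted p = 0.579), with 0.29 from a second probe set. The fatty acid elongase Elovl6 had 867, 344, 770 and 897 against 227, 199, 685, 196 and 397, overlapping through high-dose replicate 2 and low-dose replicates 3 and 5. It differed by 1.10 ± 0.39 (adjusted p = 0.738). Fatty acid synthase, Fasn, differed by 0.61 ± 0.26, and the malic enzyme Me1, also an NRF2 target, by 0.52 ± 0.23.

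Of 23 genes of fatty acid oxidation and PPARalpha targets, 19 had negative differences. Among these, 4 had an unadjusted p under 0.05, against 1.87% of all genes on that side. The median was -0.15, with -0.16 in set 1 and -0.21 in set 2. Fgf21, a fasting hormone of the liver, had signals of 197, 60.5, 70.5 and 168 against 186, 156, 434, 219 and 171. It overlapped, at -0.83 ± 0.29 (limma adjusted p = 0.735). The mitochondrial oxidation enzymes Decr1, Acaa2 and Hadha were at -0.38 ± 0.15, -0.32 ± 0.13 and -0.22 ± 0.09 (adjusted p from 0.813 to 0.851), and a second Hadha probe set gave 0.15. The mean level of this list ran from 11.24 to 11.62 at the high dose and from 11.18 to 11.86 at the low dose, so the arrays of the doses overlapped. Cholesterol synthesis genes had a median of 0.04 over 20 genes.

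Prlr, the prolactin receptor, was the gene with the smallest p among female-biased liver genes. It had signals of 739, 450, 353 and 876 at the high dose, 106, 104, 590, 202 and 203 at the low dose, and 238, 516, 997 and 1362 in MC/PB. Low-dose replicate 3 lay within the high-dose range, and the MC/PB arrays reached higher than either dose. The difference was 1.42 ± 0.47 (limma adjusted p = 0.73), with 1.03 in set 1 and 1.93 in set 2, and its 2 other probe sets gave 1.64 and 2.32. The list of 10 had 6 positive differences and a median of 0.19, and the 11 male-biased genes a median of -0.04.

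Abhd3, a phospholipase, is named here after its value was seen. Its signals were 395, 208, 163 and 302 at the high dose and 53.5, 33.2, 32.4, 44.8 and 36.8 at the low dose. All low-dose signals were under 100, so the high dose was at least 2.52-fold higher with signals under 100 set to 100. The spread elsewhere was wide, with MC/PB at 55.3, 351, 373 and 1.86, and the limma adjusted p was 0.576. Fitted on the 9 arrays alone, Abhd3 passed (adjusted p = 0.0198). Another probe set of Abhd3 was at 4.32 to 47.0 on the 9 arrays. Fabp4, a fatty acid-binding protein of adipocytes, macrophages and capillary endothelium, was under 100 on all low-dose arrays and at 171, 273, 177 and 81.1 at the high dose, at least 1.70-fold higher on the same rule (limma adjusted p = 0.579).

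**Figure D4:**
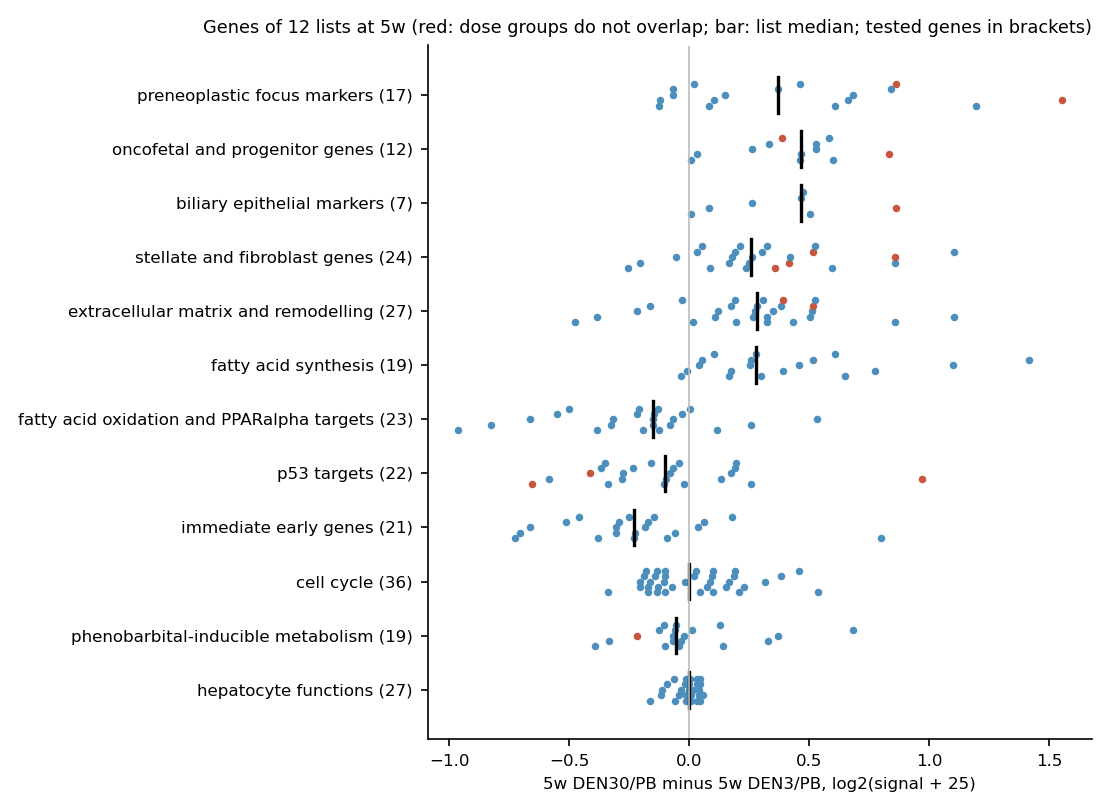
Differences between the doses at 5w for each tested gene of 12 lists, with 1 point per gene on the log2(signal + 25) scale, red where the 4 and 5 arrays do not overlap, and a bar at the list median. Medians run from 0.47 for biliary markers to -0.23 for immediate early genes, with hepatocyte functions and the cell cycle at 0.00.

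Some genes stood apart from MC/PB after both doses. Against MC/PB, 12 genes passed at the high dose (0.114%) and 4 at the low dose (0.0381%). These comparisons share the MC/PB arrays, so they are given side by side. Adam8, a membrane protease, had signals of 269, 235, 348 and 203 at the high dose, 382, 355, 191, 175 and 567 at the low dose and 43.5 to 54.6 in MC/PB. The doses overlapped broadly. With signals under 100 set to 100, they were at least 2.59-fold and 3.03-fold above MC/PB, which was under 100 on every array (limma adjusted p = 0.000473 and 1.84e-05). The dose difference was -0.22 ± 0.25, with an interval from -0.73 to 0.29.

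The long non-coding RNA Pvt1 was also under 100 on every MC/PB array, and was at least 1.90-fold higher at the high dose and 2.30-fold at the low dose (limma adjusted p = 0.0264 and 0.00203), a dose difference of -0.25 with an interval from -0.68 to 0.18. The monocarboxylate transporter family member Slc16a6 was at 1.22 and 1.02 (adjusted p = 0.0188 and 0.0779), and the glutamate receptor subunit Gria3 at 1.47 and 1.09 (adjusted p = 0.0264 and 0.175). Their dose differences were 0.20 (interval -0.25 to 0.65) and 0.38 (interval -0.19 to 0.95), and a second Slc16a6 probe set gave -0.14. The proton pump subunit Atp6v1d was at 0.39 and 0.68, a dose difference of -0.29 ± 0.12 (adjusted p = 0.831).

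Lgals3bp, a galectin-binding glycoprotein, and the collagen crosslinking enzyme Lox were ordered by dose in value. Lgals3bp had signals of 1498, 1658, 1429 and 1543 at the high dose, 1156, 637, 874, 919 and 844 at the low dose, and 885, 547, 514 and 442 in MC/PB. The doses did not overlap, at 0.80 ± 0.22 (limma adjusted p = 0.51). Lox had 702, 393, 401 and 625 at the high dose, 217, 257, 153, 363 and 471 at the low dose, and 103, 117, 137 and 66.4 in MC/PB. Low-dose replicate 5 exceeded 2 high-dose arrays, and the dose difference was 0.86 ± 0.30 (adjusted p = 0.73), with 0.35 from a second probe set. In livers without phenobarbital Lox was at 1669 to 5148, above every array of the other 3 groups. The scavenger receptor Cd36 was at -0.97 against MC/PB at the high dose and -0.65 at the low dose (adjusted p = 0.0414 and 0.413), with -0.64 between doses in set 1 and 0.05 in set 2.

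Most other liver programmes were centred near 0. Of the 40 lists, 28 had a median within 0.1 of 0, 9 lay above and 3 below, and Cela1 was in none of them. Hepatocyte functions had a median of 0.00 over 27 genes and phenobarbital-inducible metabolism -0.06 over 19. Among the latter, the cytochrome Cyp3a2 differed by -0.06, with an interval from -0.20 to 0.07. The genes that activate nitrosamines had a median of -0.03, with Cyp2e1 at 0.19 (interval -0.05 to 0.42). Medians were 0.01 for perivenous and -0.01 for periportal genes, -0.09 for bile acid genes, -0.05 for AhR targets, 0.05 for the ER stress list and 0.07 for chaperones. They were -0.05 for gluconeogenesis, 0.03 for glycolysis, -0.08 for the growth hormone axis, 0.04 for clock genes, 0.00 for the acute phase, 0.04 for proteasome subunits and -0.03 for oxidative phosphorylation. Some of these medians changed sign between set 1 and set 2, with AhR targets at 0.17 and -0.12 and the acute phase at 0.08 and -0.07. Hepatocyte functions were at 0.03 and -0.05, proteasome subunits at -0.01 and 0.08 and oxidative phosphorylation at 0.01 and -0.07. The other list medians given so far in this paragraph had the same sign in both sets. Immediate early genes, which respond within minutes to stimuli, had a median of -0.23 and 17 of 21 negative differences. Their mean level varied more among low-dose arrays, from 8.73 to 10.63, against 9.08 to 9.71 at the high dose.

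Lists of immune cells changed sign between the array sets and carry no direction here. Kupffer cell and macrophage markers had a median of -0.09, with -0.40 in set 1 and 0.28 in set 2. Antigen presentation genes were at -0.24 and 0.32 in the sets, interferon response genes at -0.16 and 0.28, and chemokines at -0.21 and 0.13. Over both sets the medians of these 3 lists were -0.02, 0.00 and -0.03. Lymphocyte markers had a median of 0.03 (-0.10 in set 1 and 0.04 in set 2). Sinusoidal and vascular endothelial markers were at 0.03 (0.05 in set 1 and -0.03 in set 2). Erythroid genes had a median of -0.10 and the 5 adipocyte and mesothelial markers 0.21 (-0.13 under the stricter filter). Only 2 neutrophil markers were tested, Lcn2 at 0.84 ± 0.63 and S100a9 at 0.33. The cell cycle list likewise had a median of 0.00 that split into 0.23 in set 1 and -0.18 in set 2, with 18 of 36 differences positive. The proliferation marker Mki67 differed by 0.38 ± 0.23 (0.63 in set 1 and 0.10 in set 2), with an interval from -0.08 to 0.84, the oncogene Myc by -0.15 and Ccnd1 by 0.23.

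The same animals were compared at 10w, after partial hepatectomy and further phenobarbital. None of 10546 genes passed in limma for the dose there (0%; 453 at an unadjusted p under 0.05). For a change of the dose difference between the weeks none of 10910 passed (0%; 233 at an unadjusted p under 0.05). That fit took the 5w and 10w arrays of an animal as independent. With the animal, matched by replicate number, as a random block (correlation 0.315), the smallest limma adjusted p was 0.391. The value of Cela1 at 10w was -1.22 (unadjusted p = 0.00032), again without overlap. Gstp1 was at 1.75 and Akr1b8 at 1.95, the latter without overlap, as were Ggt1 at 1.32, Lgals3bp at 0.97, Lox at 1.15 and Pkia at 0.81. The whole focus list had 8 of 16 positive differences at 10w, with a median of 0.08 against 0.37 at 5w. Over all genes at 10w, 49.4% of differences were positive and the median was -0.002. Of the genes taken by the naming rule, 9 of 10 higher and 8 of 10 lower kept their sign at 10w. In each direction 2 of the 10 were without overlap there. These genes were chosen by their 5w values in the same animals, so the counts are no independent replication. The matching shares of all genes are not given here. Cdkn1a was at -0.65 without overlap, while the p53 list had 11 of 23 positive differences and a median of -0.05. Sox4 was at 0.08 and Tp53bp1 was at -0.39 (difference between weeks 0.94, limma adjusted p = 1 in the fit without the animal block). All 37 tested cell cycle genes were positive at 10w, against 49.4% of all genes, with a median of 0.59 against 0.00 at 5w. These values come from the same arrays, so they are not 37 independent results. Their values within the array sets at 10w are not given. The change of that list between the weeks was not tested.

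**Figure D5:**
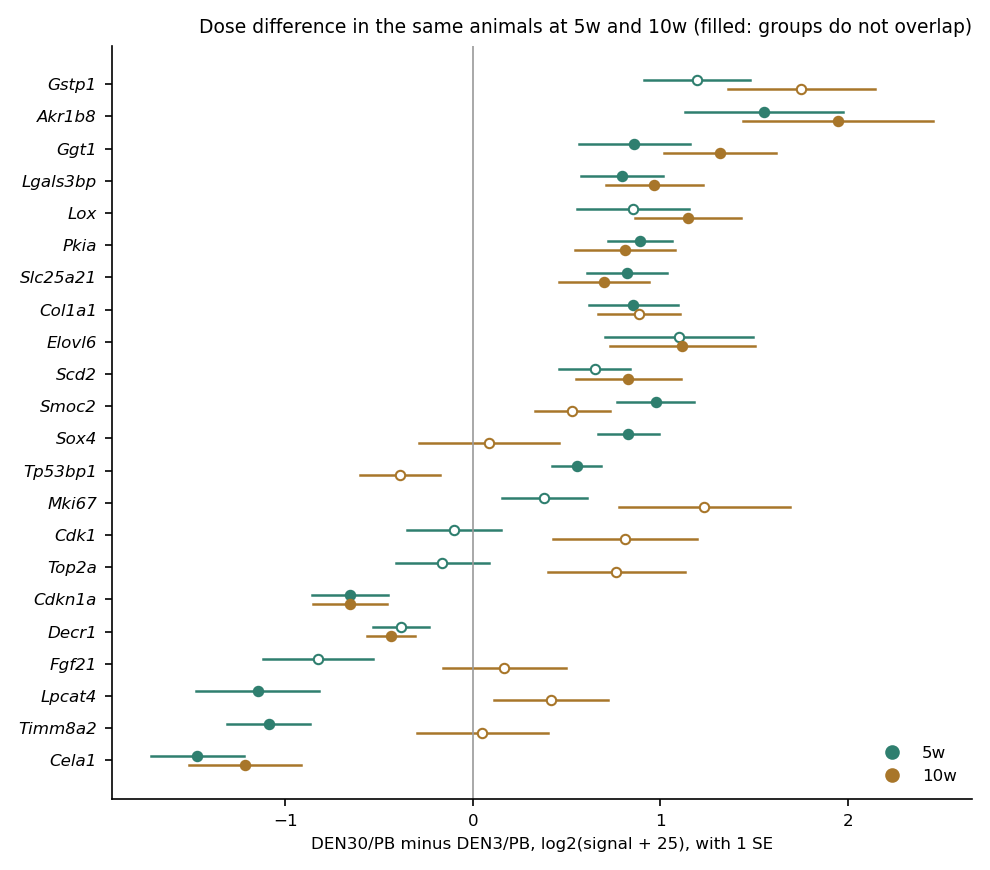
Difference between the doses (DEN30/PB minus DEN3/PB, log2 of signal + 25, with 1 SE) for 22 genes in the same animals at 5w, green, and 10w, brown, filled where the dose groups do not overlap. Cela1 is low and Gstp1 and Akr1b8 are high at both weeks, while Sox4 is near 0 at 10w (0.08) and the cell cycle genes Cdk1 and Top2a are positive at 10w.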

How the data were processed

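The authors deposited 1 signal intensity per probe set of an Affymetrix rat array, on a linear scale. MAS5 5.0 is the tool in the submitters' processing notes. No source used here names the array model or its scaling target. The 2% trimmed mean of every array was between 500.2 and 500.3, so no further scaling was applied. Of 31099 probe sets, 20826 had 1 gene symbol in the platform annotation, 436 several and 9780 none. The 57 control probe sets were left out. An offset of 25 was added before log2. Probe sets with a signal of at least 100 on 4 or more of the 31 arrays of 5w were kept, and the one with the highest mean stood for its gene.

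The doses were compared with limma 3.58.1 in R 4.3.3 (lmFit and eBayes with trend, two-sided) on the 31 arrays, with Benjamini-Hochberg adjusted p over 10491 genes. The spread is that between arrays of different animals within groups, with the array sets left in it. The number of arrays limits the precision. The rule for naming took genes past the threshold, then the genes with the smallest p among those without overlap until a direction had 10, a set of 37 genes (Bax was not on the array and Igf2 was not tested) and up to 4 genes of a described list. The genes, the 40 lists and the comparison were chosen with earlier results of these data known. The model was tested on simulated data. That simulation drew independent noise without array sets, so it does not show how the model performs on these data.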

Additional observations from a re-analysis of the deposited data

Results flagged for a closer look

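Within the dose groups at 5w, 130 sets of 4 or 5 log2 values of the named genes were searched for a single array far from the others by Dixon's criterion at 95%, by which chance picks about 1 in 20, and 4 were found. Akr1b8 on low-dose replicate 5 was at 5.87, against 7.18 to 7.53 on the other low-dose arrays. Elovl6 on high-dose replicate 2 was at 8.53, against 9.64 to 9.85. Ddit4l was picked in both groups, at 7.53 on high-dose replicate 4 (others 8.16 to 8.26) and at 6.17 on low-dose replicate 1 (others 7.21 to 7.39).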

How the results depend on the processing

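The count of 1 gene rested on few arrays. Leaving out each array in turn gave 0 to 2 genes past the threshold, 0 to 1 higher and 0 to 1 lower. It was 3 genes (2 higher) with an offset of 100, with a stricter filter, with only the 9 arrays and with robust eBayes, 5 (3 higher, 2 lower) with no filter and with array set as a block, and 1 higher and 0 lower within either set. The dose groups have the same replicate numbers, which name animals but also go with the array sets. Deviations of same-numbered arrays correlated at 0.08 to 0.20, with 3 of 4 pairs above 0.1. Pairs of other numbers within a set were at 0.03 to 0.18, and pairs across the sets at -0.17 to -0.06. The replicate block gave 2 genes, 1 of them higher, Cela1 and Gstp1, and 0 genes at 10w. Cela1 passed in 17 of 23 alternatives and kept its sign in all 23, and Pkia and Sox4 passed in 6 of 23 each.

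Signs turned only for genes near 0 or with sets that disagreed. In set 1 alone Mgmt was at 0.18, Top2a at 0.015, Cdk1 at 0.055 and Myc at 0.10, and in set 2 alone Ccnd1 was at -0.13 and Cd36 at 0.052. Gpx2 was at 0.13 with no offset and from -0.63 to 0.28 without single arrays. Without single arrays Cdk1 ran from -0.35 to 0.054, Myc from -0.46 to 0.056, Cyp1a2 from -0.34 to 0.0056, Aldh1a1 from -0.37 to 0.13 and Alb from -0.069 to 0.043 (0.0047 with the mean of probe sets). Medians of the focus, oncofetal, biliary, stellate, matrix, fatty acid synthesis and fatty acid oxidation lists kept their sign in every setting run, with the focus median lowest at 0.13 under the stricter filter. The cholesterol synthesis median changed sign in 2 settings, with -0.032 as its lowest value. The number of animals (4 against 5), the array sets and signals near 100 limit these results.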
